A study of Mus musculus with 13 samples.

Results

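Grn, Psap, Sort1 and Tmem106b encode progranulin, prosaposin, sortilin and TMEM106B, proteins of the lysosomal progranulin pathway. They were taken by gene name and are 4 of the 36287 genes in the deposited table, each with 1 row. All 4 were among the 22065 genes left after a filter on low counts. The genes were chosen with the group values of Grn in these libraries already known, so the differences in Grn between groups are given as a description and support nothing.

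The tissue of every library was hippocampus, taken from 5xFAD mice. These carry human transgenes, APP among them, with familial Alzheimer's disease mutations, driven in neurons by the Thy1 promoter. Saline was given to the mice of 4 libraries (18, 19, 32 and 38), Aducanumab, which binds aggregated forms of amyloid beta, to those of 4 (24, 50, 56 and 58), and ACLP-NT, an agent known here by its code name only, to those of 5 (17, 27, 49, 53 and 55). The numbers are those of the labels. All groups share the transgenes, no wild-type library was analysed here, and the sources used here name no age, dose or treatment time. Nothing in the labels says that the samples of a group came from separate animals, so p-values measure the spread between these samples alone.

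Progranulin is a secreted protein made of granulin repeats. Sortilin, a receptor of the Vps10 family, binds its C-terminus and carries it to the lysosome, and prosaposin carries it there along another route, through LRP1 and the mannose 6-phosphate receptor. In the lysosome cathepsins and legumain cut progranulin into granulins and prosaposin into saposins, the activators of sphingolipid hydrolases. TMEM106B is a membrane protein of late endosomes and lysosomes. In humans, loss of a GRN copy causes frontotemporal dementia, and TMEM106B variants modify its risk. In brain, progranulin is made by microglia and neurons and is abundant in microglia around amyloid plaques, while sortilin is mainly neuronal.

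The 4 genes lie on different chromosomes and on the plus strand. In the table's coordinates, for which the sources used here name no build, Grn (ENSMUSG00000034708) spans 102321141 to 102327635 on chromosome 11 and Psap (ENSMUSG00000004207) 60113449 to 60138376 on chromosome 10. Sort1 (ENSMUSG00000068747) spans 108191398 to 108268827 on chromosome 3, and Tmem106b (ENSMUSG00000029571) 13069758 to 13081651 on chromosome 6. Only Sort1 is overlapped by other genes of the table, Gm12523 and Gm43099, whose counts came to 0.012% and 0.015% of its own.

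The bases before the start of a gene are shown because lysosomal genes, Grn among them, are known targets of the transcription factors TFEB, TFE3 and MITF. RefSeq start windows on GRCm38.p6 were matched for 3 of the 4 genes, and Sort1 was not matched. Each sequence below is the 250 bases before a RefSeq start, read 5′ to 3′ on the plus strand, with motif matches in capitals. Grn lies at chr11:102430257-102430506, the first of 2 Psap windows at chr10:60277378-60277627 and Tmem106b at chr6:13069509-13069758. The Grn and Psap windows do not meet the gene starts given above, so the coordinates of genes and of windows are not interchangeable.
Grn: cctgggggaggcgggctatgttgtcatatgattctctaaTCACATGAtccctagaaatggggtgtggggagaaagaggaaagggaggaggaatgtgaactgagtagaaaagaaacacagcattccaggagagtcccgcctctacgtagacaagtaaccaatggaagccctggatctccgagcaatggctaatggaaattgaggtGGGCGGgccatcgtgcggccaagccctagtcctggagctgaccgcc
Psap: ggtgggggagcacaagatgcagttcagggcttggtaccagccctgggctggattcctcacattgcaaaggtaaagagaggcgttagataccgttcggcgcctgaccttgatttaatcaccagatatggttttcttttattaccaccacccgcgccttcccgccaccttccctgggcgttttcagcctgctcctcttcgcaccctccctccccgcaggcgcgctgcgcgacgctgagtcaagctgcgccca
Tmem106b: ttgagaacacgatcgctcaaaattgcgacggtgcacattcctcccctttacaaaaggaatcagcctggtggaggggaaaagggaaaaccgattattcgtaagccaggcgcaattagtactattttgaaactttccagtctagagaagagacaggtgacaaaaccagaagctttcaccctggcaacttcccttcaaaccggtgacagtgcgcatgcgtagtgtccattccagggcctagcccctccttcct
Searched on both strands were the core of the CLEAR element of TFEB (TCACGTGA), the core of the M-box of MITF (TCATGTGA, on the other strand TCACATGA), the E-box CACGTG, which lies within the CLEAR core, and the GC box GGGCGG. Grn had an M-box core that begins 211 bases before the start and a GC box that begins 46 bases before it. The windows of Psap, its second one included, and of Tmem106b held none of the 4 motifs. Of 32851 windows of the same length over all genes, 0.846% held the M-box core, 0.785% the CLEAR core, 6.02% the E-box and 32.7% the GC box. A match is a stretch of letters and says nothing on binding.

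Total counts per library ran from 53642019 to 69734713. The 6 markers of hippocampal neurons and fields (Prox1, Zbtb20, Wfs1, Fibcd1, Spink8 and Dsp) were all present, with a summed level of 539 to 789 CPM (counts scaled to library size, here with TMM, which sets that size by the bulk of the genes). Markers of the choroid plexus, a tissue beside the hippocampus, summed to between 49.3 CPM (saline 18) and 5223 CPM (Aducanumab 58).

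On the FPKM scale, which divides by gene length as well as by depth and so compares genes, Psap was the most abundant of the 4, with 491 ± 36.0 FPKM (SD, n = 13 over all groups). It ranked between 30 and 43 of the 22065 genes in every library. Sort1 followed with 77.8 ± 5.33 FPKM (SD, n = 13) and ranks of 326 to 435. Grn and Tmem106b were close to each other at 31.0 ± 4.86 and 28.1 ± 1.33 FPKM (SD, n = 13). The order of these neighbours depended on the group. The FPKM ratio of Tmem106b to Grn was 0.688 to 0.774 in the saline libraries, 0.8905 to 1.17 in the Aducanumab libraries and 0.858 to 1.122 in those of ACLP-NT, so Grn was above Tmem106b in all 4 saline libraries and on either side of it in the treated ones. As a ratio that involves Grn, it is part of the description.

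The genes also differed in how much they varied. Over the 13 libraries the coefficient of variation of CPM was 15.4% for Grn, 7.30% for Sort1, 6.74% for Psap and 4.80% for Tmem106b. Over the 2241 genes with a mean of at least 100 CPM the median was 5.61%, and 96.7% of them had a lower value than Grn. Counting error was smaller than this spread, between 0.994% and 1.39% of the count of Grn in a library. The spread of Grn over all libraries includes its known gap between saline and treated libraries. It and its place among these genes are thus a description. Within groups the coefficient of variation of Grn was 3.54% in saline, 11.0% in Aducanumab and 12.3% in ACLP-NT.

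Grn, the precursor of granulins, had lower values in both treated groups than in saline. In saline 18, 19, 32 and 38 it stood at 133, 134, 139.7 and 143 CPM. In Aducanumab 24, 50, 56 and 58 it stood at 117, 92.3, 99.25 and 114 CPM. In ACLP-NT 17, 27, 49, 53 and 55 it stood at 112, 94.6, 127, 96.7 and 107 CPM. No treated library reached the lowest saline library, and ACLP-NT 49 came nearest. The saline libraries lay within 1.08-fold of each other, the Aducanumab libraries within 1.26-fold and the ACLP-NT libraries within 1.35-fold.

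The means of Grn were 137 ± 4.87 CPM in saline (SD, n = 4), 107 ± 13.2 CPM in ACLP-NT (SD, n = 5) and 106 ± 11.6 CPM in Aducanumab (SD, n = 4). The log2 fold change was -0.36 (SE 0.0857, 95% interval -0.54 to -0.17) for ACLP-NT against saline, a difference of -21.8%. For Aducanumab against saline it was -0.38 (SE 0.0908, interval -0.58 to -0.19), a difference of -23.3%. These 2 comparisons share the saline libraries and are not independent. All intervals given are per gene, with no adjustment for the number of genes. Between ACLP-NT and Aducanumab the libraries overlapped, with a log2 fold change of 0.027 (SE 0.0861, interval -0.16 to 0.21). Of all genes tested, 1.33% had every ACLP-NT library below every saline library and 1.41% every Aducanumab library, and nothing is read from Grn being among them. In the other direction the shares were 0.925% and 1.16%, or 2.26% and 2.58% for both directions together. For ACLP-NT set against Aducanumab they were 0.644% wholly lower, 0.693% wholly higher and 1.34% together.

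By the edgeR quasi-likelihood test with Benjamini-Hochberg adjustment at 0.05, 0% of the 22065 genes passed in each of the 3 comparisons, and so none of the 4 members did. For Grn against saline the adjusted p of this test was 0.7217 in ACLP-NT and 0.8335 in Aducanumab. With no adjustment, 1298 of the 22065 genes had a p below 0.05 in ACLP-NT against saline, 1033 in Aducanumab against saline and 716 between the treatments. With no difference between groups, a share of about 0.05 of the genes would lie below this cut on average. Genes that share the same 13 libraries are not independent, so these counts can show neither an effect nor its absence. DESeq2 called 12, 19 and 3 genes (0.0467%, 0.0914% and 0.00828% of those it tested), and on the genes that edgeR tested 9, 18 and 3 (0.0408%, 0.0966% and 0.0136%). Grn was among the 19 and the 18 of Aducanumab against saline, with a log2 fold change of -0.39 and -0.38, and in no other of these sets. Its DESeq2 adjusted p was 0.0486 and 0.04935 there, just below the threshold. In ACLP-NT against saline the DESeq2 adjusted p of Grn was 0.07523 and 0.0673, just above it. As Grn was chosen with its values known, these calls are a description and mark no difference between the agents. limma on log2(FPKM + 1) called 0 of 13985 genes in each, with 1006, 705 and 486 at an unadjusted p below 0.05.

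**Figure D1:**
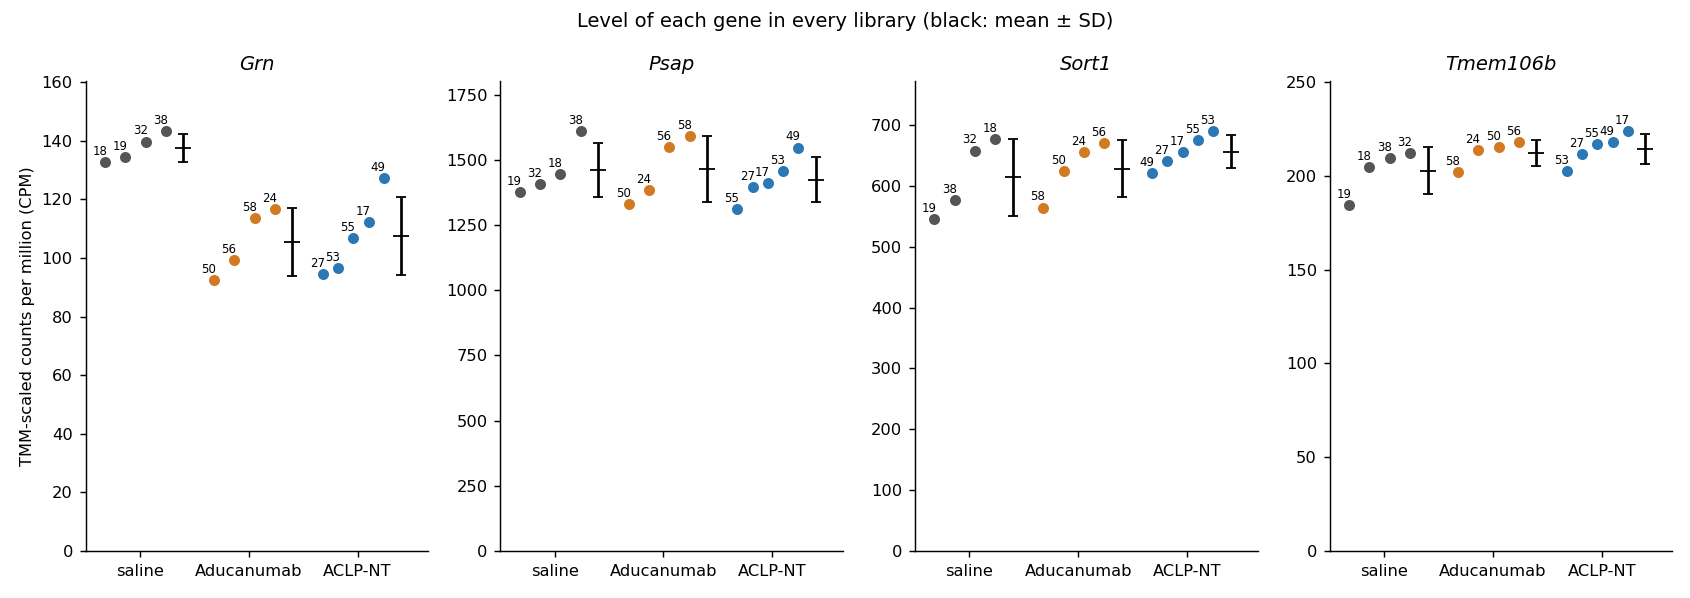
TMM-scaled CPM of the 4 genes in every library, on axes that start at 0. Points are libraries with their numbers, ordered by level within a group, and black bars are the mean ± SD. Grn lies at 133 to 143 CPM in saline and at 92.3 to 127 CPM in the treated libraries, while the groups overlap for Psap, Sort1 and Tmem106b.

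Microglia markers moved with Grn. The 8 markers (among them Cx3cr1, P2ry12, Tmem119, Csf1r, Aif1, Itgam and Sall1) were all tested, none was at 0, and their summed level was 875 to 1054 CPM in saline, 735 to 879 CPM in Aducanumab and 630 to 887 CPM in ACLP-NT. The 8 markers of plaque microglia (Cst7, Clec7a, Itgax, Trem2, Tyrobp, Lpl, Axl and Cd68) summed to 347 to 450 CPM (saline), 284 to 388 CPM (Aducanumab) and 228 to 362 CPM (ACLP-NT). ACLP-NT 27 and 53, Aducanumab 50 and 56 held the lowest 4 values of both sums and of Grn. In bulk tissue, fewer cells of a type and less RNA per cell cannot be told apart.

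Over the 13 libraries, log2 CPM of Grn and the mean centred log2 CPM of the microglia markers had a Pearson r of 0.92 and a Spearman rho of 0.96. As the known gap in Grn between saline and treated libraries enters these values, they are a description, with no p. Without ACLP-NT 27 and 53, the libraries farthest from the median score, r was 0.94, and with the group means removed it was 0.89. Both values come from the same libraries and share their scaling. For the plaque microglia markers r was 0.85 and rho 0.84, with an r of 0.84 without the same libraries and of 0.87 with group means removed. Groups of 4 or 5 libraries are too small for an r of their own.

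With the microglia score as a covariate in edgeR, the log2 fold change of Grn was -0.11 (SE 0.0654) for ACLP-NT against saline and -0.175 (SE 0.0621) for Aducanumab against saline. Without the covariate they were -0.36 and -0.38. With the choroid plexus score in its place they were -0.39 (SE 0.0885) and -0.41 (SE 0.0918). Every saline library had a higher microglia score than every treated library (lowest 0.0896 in saline 18, highest treated 0.0878 in ACLP-NT 49). Fits with the microglia covariate thus compare groups at scores they do not share, and score and group cannot be told apart in them. Astrocyte markers also moved with Grn (r 0.71 and rho 0.83, an r of 0.85 without Aducanumab 58 and ACLP-NT 27, and of 0.70 with group means removed). The parts of microglia and of astrocytes in the difference were not tested.

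Psap, the precursor of the saposins, had overlapping values in all groups. It stood at 1447, 1376, 1409 and 1610 CPM in saline 18, 19, 32 and 38. The values were 1384, 1332, 1551 and 1591 CPM in Aducanumab 24, 50, 56 and 58. In ACLP-NT 17, 27, 49, 53 and 55 they were 1411, 1396, 1548, 1458 and 1311 CPM. The order of the means was 1464 ± 126 CPM in Aducanumab (SD, n = 4), 1460 ± 104 CPM in saline (SD, n = 4) and 1425 ± 86.9 CPM in ACLP-NT (SD, n = 5), and no neighbours differed beyond their spread.

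The log2 fold change of Psap was -0.035 (SE 0.0685, 95% interval -0.18 to 0.11) in ACLP-NT against saline and 0.0038 (SE 0.0723, interval -0.15 to 0.16) in Aducanumab against saline. Between ACLP-NT and Aducanumab it was -0.039 (SE 0.0685, interval -0.19 to 0.11). By edgeR the adjusted p was 0.977, 0.9997 and 1. Leaving out 1 library at a time changed the sign in all 3 comparisons, with values between -0.082 and 0.053. All these intervals include 0, and a p that misses the threshold does not show equal levels.

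The 4 libraries highest in Psap were rich in choroid plexus markers. Saline 38, Aducanumab 58, Aducanumab 56 and ACLP-NT 49 were the 4 highest libraries for Psap, and their choroid plexus markers summed to 5102, 5223, 4645 and 3863 CPM. ACLP-NT 53, with 5096 CPM of these markers, had 1458 CPM of Psap. The libraries lowest in Psap, ACLP-NT 55 and Aducanumab 50, had 85.5 and 84.3 CPM of the markers. The other libraries poor in them did not follow: saline 18, the poorest with 49.3 CPM, had 1447 CPM of Psap, and saline 32, with 113 CPM, had 1409 CPM, beside a median of 1411 CPM over all 13. As 4 libraries with 49.3 to 113 CPM stood apart from the remaining ones with 576 to 5223 CPM, no correlation was computed, and the part of this tissue in the spread of Psap was not tested beyond the following fit. With the choroid plexus score as a covariate, the log2 fold change of Psap was -0.10 (SE 0.0464) in ACLP-NT against saline and -0.051 (SE 0.0478) in Aducanumab against saline, and neither passed (edgeR, adjusted p 0.709 and 0.9998).

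**Figure D2:**
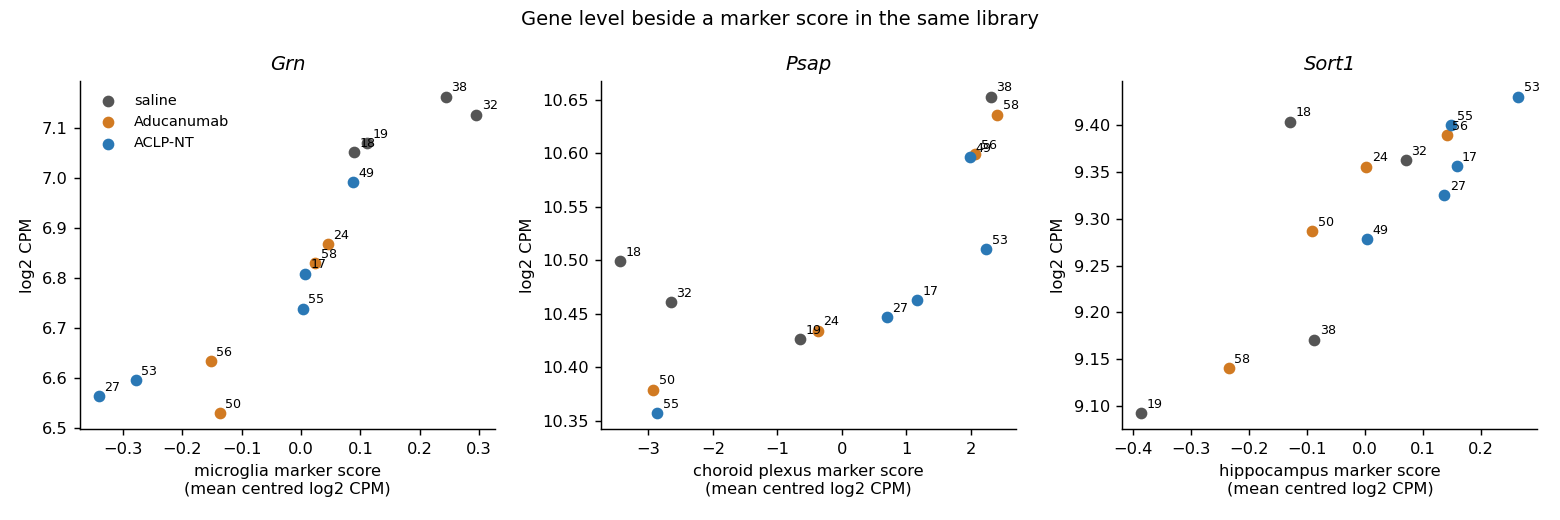
log2 CPM of a gene (y axes, not from 0) against a marker score, the mean centred log2 CPM of the listed markers, in each of the 13 libraries with its number. Grn and the microglia score have an r of 0.92, the 4 libraries highest in Psap are rich in choroid plexus markers, and Sort1 and the hippocampus score have an r of 0.82.

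Sort1, the receptor that takes progranulin up, had means in the order ACLP-NT, Aducanumab and saline. It stood at 677, 546, 658 and 576 CPM in saline 18, 19, 32 and 38. In Aducanumab 24, 50, 56 and 58 the values were 655, 625, 670.5 and 564 CPM. In ACLP-NT 17, 27, 49, 53 and 55 they were 655, 641, 621, 689.8 and 675 CPM. All groups overlapped, and saline 19, Aducanumab 58 and saline 38 were the lowest libraries. The means were 656 ± 27.3 CPM in ACLP-NT (SD, n = 5), 629 ± 46.9 CPM in Aducanumab (SD, n = 4) and 614 ± 63.4 CPM in saline (SD, n = 4), with no neighbours apart beyond their spread.

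The log2 fold change of Sort1 was 0.096 (SE 0.0688, 95% interval -0.052 to 0.24) in ACLP-NT against saline, 0.044 without saline 19 and 0.146 without saline 18. In Aducanumab against saline it was 0.033 (SE 0.0725, interval -0.12 to 0.19), and between -0.021 (without saline 19) and 0.0832 (without Aducanumab 58) when 1 library was left out. ACLP-NT set against Aducanumab gave 0.063 (SE 0.0688, interval -0.085 to 0.21), 0.015 without Aducanumab 58 and 0.095 without Aducanumab 56. With the microglia score as covariate Sort1 was at 0.059 in ACLP-NT and 0.0027 in Aducanumab against saline. With the choroid plexus score it was at 0.136 in ACLP-NT and 0.066 in Aducanumab. None passed in edgeR (adjusted p 0.924, 0.9997 and 1). Sort1 and the score of the 6 hippocampal markers had an r of 0.82 and a rho of 0.66 over the 13 libraries (permutation, adjusted p 0.0113 and 0.158 over the 50 relations computed), with an r of 0.66 without saline 19 and ACLP-NT 53 and 0.81 with group means removed. The 50 relations include those of Grn, which carry its known gap. Their small p can lower the adjusted p of other relations, and an adjustment without them was not run. The summed hippocampal markers were at 539 to 716 CPM in saline, 629.8 to 738 CPM in Aducanumab and 656 to 789 CPM in ACLP-NT. Endothelial and pericyte markers had an r of -0.73 and a rho of -0.57 with Sort1 (permutation, adjusted p 0.0414 and 0.314), and r was -0.62 without Aducanumab 58 and ACLP-NT 55. The 8 general neuron markers had an r of 0.56 and a rho of 0.45 with Sort1 (permutation, adjusted p 0.1495 and 0.387). That r was 0.14 without saline 38 and Aducanumab 58. The part of these markers in the values of Sort1 was not tested.

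Tmem106b, the lysosomal membrane protein, was the most even of the 4 genes. It stood at 205, 184, 212 and 209.5 CPM in saline 18, 19, 32 and 38. In Aducanumab 24, 50, 56 and 58 it was at 214, 215, 218 and 202 CPM, and in ACLP-NT 17, 27, 49, 53 and 55 at 224, 211.5, 218, 203 and 217 CPM. Of the Aducanumab libraries 3 of 4 and of the ACLP-NT libraries 3 of 5 lay above the highest saline library, and the others overlapped with saline. Saline 19 was the lowest library, as it was for Sort1. The means were 215 ± 7.96 CPM in ACLP-NT (SD, n = 5), 212 ± 7.11 CPM in Aducanumab (SD, n = 4) and 203 ± 12.6 CPM in saline (SD, n = 4), again with no neighbours apart beyond their spread.

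The log2 fold change of Tmem106b was 0.082 (SE 0.0457, 95% interval -0.016 to 0.18) in ACLP-NT against saline and 0.041 without saline 19. In Aducanumab against saline it was 0.067 (SE 0.0481, interval -0.036 to 0.17) and 0.023 without saline 19. With the microglia score as covariate these values were 0.14 and 0.11. Between ACLP-NT and Aducanumab it was 0.015 (SE 0.0456, interval -0.083 to 0.11), and between -0.0075 (without Aducanumab 58) and 0.038 (without ACLP-NT 53) when 1 library was left out. None passed in edgeR (adjusted p 0.8725, 0.9997 and 1). Markers of oligodendrocyte precursors had an r of -0.80 with Tmem106b (permutation, adjusted p 0.0279) and a rho of -0.49 (adjusted p 0.341). That r was -0.30 without saline 19 and ACLP-NT 17, so it rested on these libraries. As for Sort1, r was positive with the hippocampal markers (0.68, rho 0.55) and negative with endothelial and pericyte markers (-0.64, rho -0.71). Neither relation passed for Tmem106b (permutation, adjusted p 0.0737 and 0.105 for r, 0.325 and 0.0924 for rho). The adjustment for Tmem106b also took in the relations of Grn, as it did for Sort1. The part of these markers in the values of Tmem106b was not tested.

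**Figure D3:**
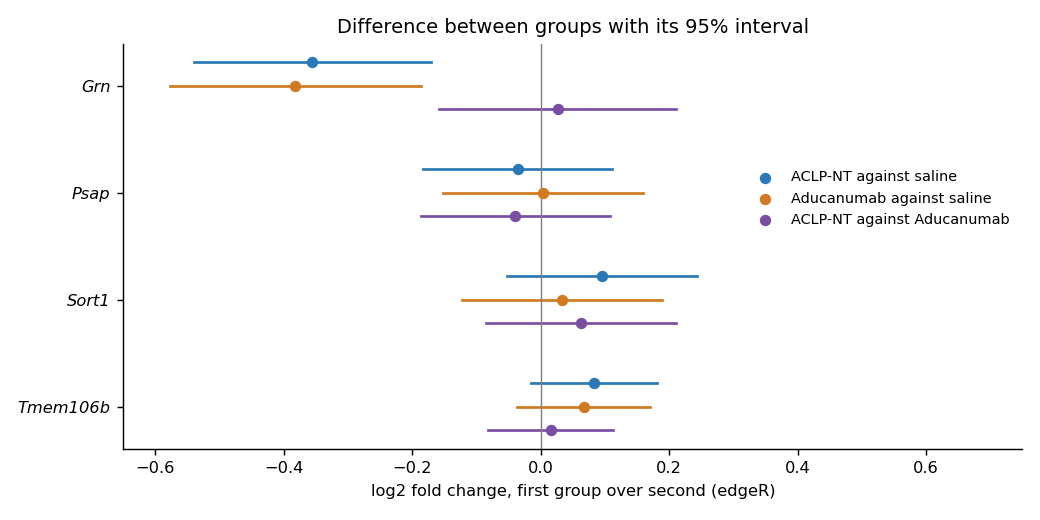
log2 fold change of each gene in the 3 comparisons (points) with its 95% interval from edgeR (lines); values below 0 mean a lower level in the first group named. The intervals of Grn against saline run from -0.54 to -0.17 for ACLP-NT and from -0.58 to -0.19 for Aducanumab, and all other intervals include 0. They are per gene and not adjusted for the number of genes, and Grn was chosen with its values known. With adjustment Grn did not pass (edgeR, adjusted p 0.7217 for ACLP-NT and 0.8335 for Aducanumab).

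The correlations between the 4 genes were mixed in sign. Over the 13 libraries the Pearson r between pairs ran from -0.40 for Grn and Sort1 to 0.58 for Sort1 and Tmem106b. None of the 6 pairs passed (permutation, smallest adjusted p 0.148 for r and 0.543 for rho). Pairs with Grn carry its known gap and are a description. A pair that misses the threshold over 13 libraries does not show that its genes vary apart. The r of Sort1 and Tmem106b was -0.14 without saline 19 and Aducanumab 58, so it rested on these libraries. Grn and Psap had an r of 0.30, or 0.41 with group means removed, and -0.055 without saline 38 and Aducanumab 50.

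The genes most like each member by Pearson r of log2 CPM over the 13 libraries were picked from 10346 genes with a mean of at least 10 CPM, so a high r is built into the choice and has no test. For Grn they were Cd53, Mpeg1, Gpr34, Slco2b1 and Vav1 (r 0.91 to 0.94), and for Psap Ucp2, Slc23a2, Slc37a2, Nucb1 and Ctnna1 (r 0.92 to 0.94). For Sort1 they were Nckap1, Neurod6, Sh3bp5, Brinp1 and Sphkap (r 0.93 to 0.94), and for Tmem106b Ywhaq, Eif5b, Arl1 and Ppp1cb (r 0.86 to 0.88). No gene was on more than 1 of these lists. With group means removed, the r was 0.82 to 0.93 for the 5 genes of Grn, 0.93 to 0.96 for those of Psap, 0.92 to 0.95 for those of Sort1 and 0.84 to 0.93 for those named of Tmem106b.

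The other genes of the pathway were read from 9 lists with 107 distinct genes tested. The lists were compiled with earlier results of these libraries known. None of the genes passed in edgeR, where 0% of all genes did. In ACLP-NT 65 had values below and 42 above saline. Their median log2 fold change was -0.034, and that of all genes tested -0.0015. In Aducanumab against saline 67 were below and 40 above, with a median of -0.027 (0.0036 over all genes). Between ACLP-NT and Aducanumab the median was -0.011 (-0.0064 over all genes). The smallest adjusted p among them was 0.722, 0.9997 and 1 in turn. The genes named below are from the 3 of a list with the smallest unadjusted p in a comparison. Leaving out 1 library of the groups compared moved the value by over 1.5 times or changed its sign for 9 of the 27 genes of that rule in ACLP-NT against saline, 14 of 26 in Aducanumab against saline and 18 of 27 between the treatments, and none passed without a library.

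Proteases that cut progranulin, with its inhibitors and surface receptors, had the lowest list median in ACLP-NT, -0.23 with 12 of 15 members below saline, against -0.037 with 10 of 15 in Aducanumab. Ctsb, a lysosomal cysteine protease, averaged 746 ± 53.5 CPM in saline (SD, n = 4), 637 ± 64.1 CPM in ACLP-NT (SD, n = 5) and 661.5 ± 31.8 CPM in Aducanumab (SD, n = 4), with log2 fold changes of -0.23 (SE 0.0723) and -0.17 (SE 0.0764). In ACLP-NT against saline Lgmn, the asparagine endopeptidase legumain, was at -0.24 (SE 0.0790), and Ctss, a protease of microglia, at -0.45 (SE 0.165). In Aducanumab against saline Ctsd, the main aspartic protease of lysosomes, was at -0.29 (SE 0.166) and Ctsz at -0.31 (SE 0.161). Ctsb, Ctsd, Ctss and Ctsz are also expressed by microglia, whose summed marker levels are given above. The part of microglia in these values was not tested.

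Enzymes that hydrolyse sphingolipids, several with a saposin as activator, had medians of -0.085 in ACLP-NT and -0.066 in Aducanumab against saline, with 11 and 9 of 15 members below saline. Hexa, a lysosomal enzyme of ganglioside breakdown, averaged 111 ± 10.9 CPM in saline (SD, n = 4), 87.7 ± 14.5 CPM in ACLP-NT (SD, n = 5) and 93.1 ± 12.7 CPM in Aducanumab (SD, n = 4), with log2 fold changes of -0.34 (SE 0.119) and -0.25 (SE 0.125). Smpdl3b, a lipid-modifying phosphodiesterase, was at -0.51 (SE 0.180) in ACLP-NT, and at -0.28 without saline 19. In Aducanumab Ctsa, the protective protein of the lysosomal neuraminidase, was at -0.16 (SE 0.0780).

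Genes for bis(monoacylglycero)phosphate, the lysosomal lipid abbreviated BMP that is low in progranulin deficiency, and for other lysosomal lipids had medians of -0.069 in ACLP-NT and -0.049 in Aducanumab, with 11 and 10 of 14 members below saline. Pld4, an endolysosomal exonuclease of microglia, averaged 23.5 ± 0.590 CPM in saline (SD, n = 4), 18.4 ± 2.56 CPM in ACLP-NT (SD, n = 5) and 19.7 ± 1.84 CPM in Aducanumab (SD, n = 4), with log2 fold changes of -0.36 (SE 0.0997) and -0.26 (SE 0.105). Pla2g15, a lysosomal phospholipase, was at -0.17 (SE 0.0680) and -0.16 (SE 0.0719). Pld3 was at -0.088 (SE 0.0570) in ACLP-NT, and Mfsd8, a lysosomal membrane protein, at -0.13 (SE 0.0582) in Aducanumab.

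Receptors and carriers of prosaposin had medians of -0.025 and -0.013 with 6 and 5 of 10 members below saline. The endocytic receptor Lrp1 was at -0.038 (SE 0.0384) in ACLP-NT and -0.039 (SE 0.0405) in Aducanumab. Without saline 19, which both comparisons share, Lrp1 was at -0.0070 and -0.0094. Scarb2, a lysosomal membrane protein, was at -0.088 (SE 0.0568) and -0.056 (SE 0.0599). Its value in Aducanumab was -0.022 without Aducanumab 24 and -0.11 without Aducanumab 58. M6pr, a mannose 6-phosphate receptor, was at -0.050 (SE 0.0478) in ACLP-NT, and Gga2, a sorting adaptor, at -0.068 (SE 0.0602) in Aducanumab. M6pr was at -0.016 without ACLP-NT 27, and Gga2 at -0.11 without saline 32 and -0.040 without saline 38.

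The sortilin family and its partners had medians of 0.0068 in ACLP-NT and -0.0031 in Aducanumab. Sorcs1, a Vps10 receptor, averaged 16.4 ± 3.86 CPM in saline (SD, n = 4), 10.7 ± 2.76 CPM in ACLP-NT (SD, n = 5) and 10.95 ± 1.23 CPM in Aducanumab (SD, n = 4), with log2 fold changes of -0.62 (SE 0.190) and -0.59 (SE 0.202). Bdnf, a neurotrophin whose precursor binds sortilin, was at 0.38 (SE 0.118) and 0.20 (SE 0.124), and the value in Aducanumab was 0.061 without Aducanumab 56 and 0.31 without saline 32. Sorcs3, another receptor of the family, was at 0.18 (SE 0.0880) in ACLP-NT, and Ntsr1, a neurotensin receptor, at -0.53 (SE 0.319) in Aducanumab and at -0.31 without saline 18. Markers of the neocortex summed to 105 to 197 CPM in saline, 91.1 to 139 CPM in ACLP-NT and 72.3 to 107 CPM in Aducanumab. Their part in the values of this list was not tested.

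Retromer and endosomal sorting genes had medians of 0.014 and -0.019, with the sorting nexins Snx5 at -0.11 (SE 0.0469) and Snx27 at 0.046 (SE 0.0360) and the adaptor subunit Ap3b1 at 0.064 (SE 0.0499) in ACLP-NT. In Aducanumab Vps29, a retromer subunit, was at -0.082 (SE 0.0444), the sorting nexin Snx1 at 0.0998 (SE 0.0660) and the adaptor subunit Ap1m1 at 0.0705 (SE 0.0526). The TMEM106 family and its partners had medians of -0.11 and -0.063. Ctsd was at -0.33 (SE 0.157), the membrane protein Lamp1 at -0.12 (SE 0.0723) and the microtubule protein Map6, a partner of TMEM106B, at -0.0997 (SE 0.0708) in ACLP-NT, and Tmem106a, a paralog, at -0.38 (SE 0.231) and Map6 at -0.11 (SE 0.0747) in Aducanumab. Lamp1 was at -0.069 without ACLP-NT 27, and Map6 without saline 18 at -0.053 in ACLP-NT and -0.065 in Aducanumab, where it was at -0.057 without Aducanumab 58.

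Transcription factors of lysosomal genes and their regulators had medians of -0.031 and -0.017 over 8 genes tested. Mlx was at -0.068 (SE 0.0713), Flcn at 0.038 (SE 0.0497) and Fnip1 at 0.038 (SE 0.0492) in ACLP-NT. There Mlx was at -0.018 without saline 32 and -0.12 without saline 38, and Flcn at 0.064 without saline 38. Fnip1 was at 0.0025 without saline 19 and 0.087 without saline 32. In Aducanumab Mlx was at -0.047 (SE 0.0752), Tfe3 at -0.042 (SE 0.0680) and Flcn at -0.019 (SE 0.0523), of which Mlx was above 0 without saline 32 and Flcn without saline 38 or Aducanumab 24. Other genes of frontotemporal dementia had medians of 0.030 and -0.015. The RNA-binding proteins Hnrnpa2b1 and Tardbp were at 0.070 (SE 0.0357) and 0.060 (SE 0.0348) in ACLP-NT, and Hnrnpa2b1 was at 0.058 (SE 0.0376), Tia1 at -0.078 (SE 0.0469) and Vcp at 0.057 (SE 0.0510) in Aducanumab.

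Between ACLP-NT and Aducanumab the companion gene named with the largest gap was Mmp12, a macrophage elastase, at -1.93 (SE 0.845), but its means were only 0.121 and 0.472 CPM. Mfsd8 was at 0.19 (SE 0.0553), Gpnmb, a membrane protein of lipid-laden phagocytes, at -0.43 (SE 0.192), Smpdl3b at -0.42 (SE 0.181) and Tnfrsf1a, a TNF receptor, at -0.28 (SE 0.151). Without Aducanumab 58 Tnfrsf1a was at -0.084 and Gpnmb at -0.20. The remaining named genes with negative values were Ctsl, M6pr, Scarb2, Neu1, Cln6, Tmem106c, Lamp2 and Tfeb, between -0.18 and -0.032; without Aducanumab 58 Ctsl was at -0.084, and Scarb2, Lamp2 and Tfeb were above 0. Those with positive values were Gga2, Neu4, Sorl1, Bdnf, Ntf3, Vps26a, Vps26b, Vps29, Atp6v0d1, Flcn, Fnip1, Tardbp, Tbk1 and Hnrnpa1, between 0.033 and 0.31, and Gga2 was below 0 without ACLP-NT 17.

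**Figure D4:**
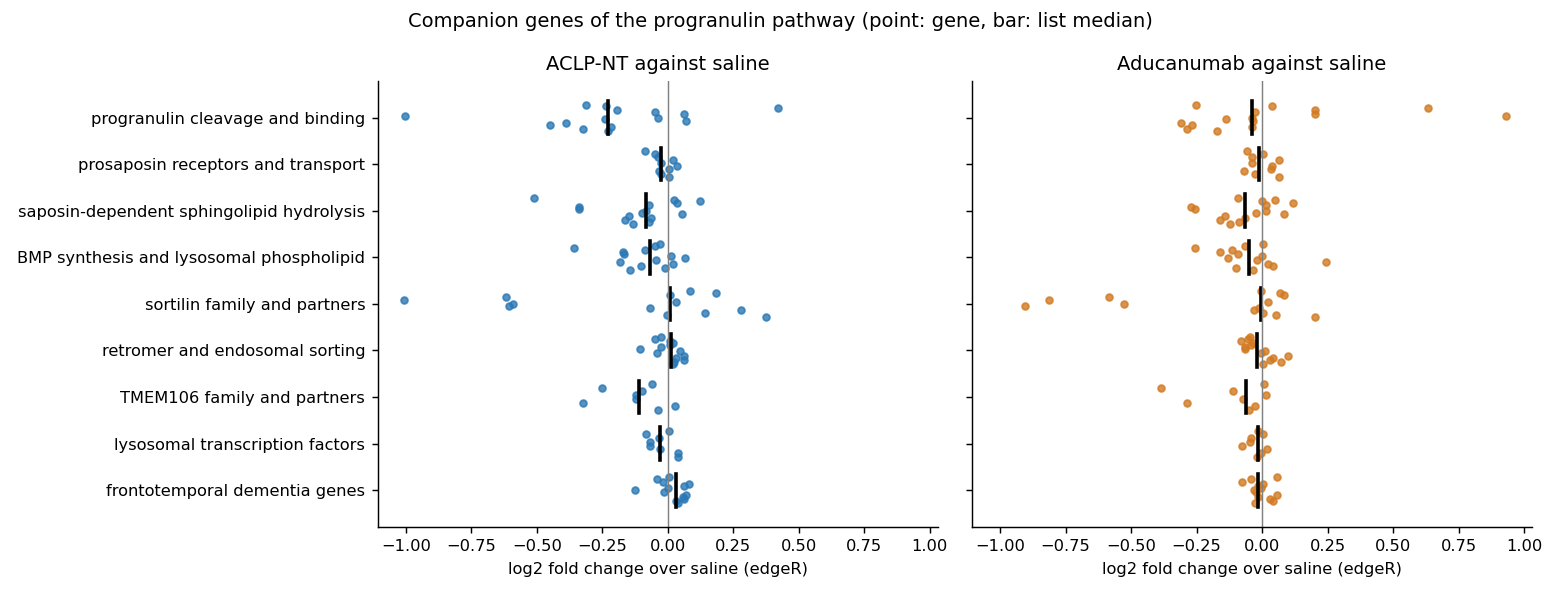
log2 fold change over saline of every tested companion gene (points) by list, with the list median (black bars), for ACLP-NT (left) and Aducanumab (right). The median of the genes that cut or bind progranulin is -0.23 for ACLP-NT and -0.037 for Aducanumab, and none of the genes passed the test.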

How the data were processed

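Hippocampal RNA of 13 libraries was sequenced. Per the file headers, the authors deposited raw read counts per gene and FPKM values of the same genes. Among the tools in the submitters' processing notes are edgeR, StringTie 1.3.4d, HISAT2 2.0.4 and cutadapt 1.9. The program that made the counts, the genome build and strand use are not stated. Groups follow the labels. The members and the gene and marker lists were chosen with earlier results of these data known.

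Counts were fitted with edgeR 4.0.16 (R 4.3.3; filterByExpr, TMM, quasi-likelihood) over all 13 libraries in 1 model, with Benjamini-Hochberg adjustment over 22065 genes and a threshold of 0.05. The scripts were tested on simulated counts. Levels are TMM-scaled CPM, and FPKM is used to compare genes. Alternatives used DESeq2 1.42.0, limma 3.58.1 on log2(FPKM + pseudocount), other scalings and filters, marker covariates and leaving out each library. Correlations used 100000 permutations (SciPy 1.17.1). The text names the members, per list and comparison the 3 tested companions with the smallest unadjusted p, and the 5 genes most correlated with each member, leaving out predicted genes and pseudogenes; a few genes that this rule names are not reported here. Counting error covers sampling of reads only.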

Additional observations from a re-analysis of the deposited data

Results flagged for a closer look

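None of the 4 members had a library standing apart from its group by Dixon's test at the 95% level, in 12 groups tested. Among the named companion genes 17 of 171 groups did, and chance flags about 1 in 20 groups. The genes share the same 13 libraries, so the groups are not independent and the count cannot show an excess over chance. Of these 17, 6 were in Aducanumab 58. There Lamp1 was at 383.4 CPM (next library 337.4), Lgmn at 145.2 CPM (next 122.6), Tnfrsf1a at 31.78 CPM (next 20.77), Neu1 at 51.56 CPM (next 55.59), Pld3 at 349.9 CPM (next 368.6) and Sorl1 at 307.9 CPM (next 348.7). In the other Aducanumab libraries Bdnf was at 43.94 CPM in 56 (next 31.78), Lrp1 at 493.8 CPM in 24 (next 479.7) and Mmp12 at 0.8067 CPM in 50 (next 0.3761). In saline, Tbk1 was at 46.33 CPM (next 41.31) and Vcp at 269.9 CPM (next 237.9) in 18, Smpdl3b at 4.354 CPM in 19 (next 2.702), Ap3b1 at 67.96 CPM in 32 (next 63.54) and Lamp2 at 152.3 CPM in 38 (next 114.1). In ACLP-NT, Gga2 was at 40.11 CPM in 17 (next 35.86), and in 27 Ap1m1 was at 71.13 CPM (next 65.64) and Pld4 at 13.89 CPM (next 18.74).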

How the results depend on the processing

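The counts of called genes and the log2 fold changes of the 4 members were each recomputed under 25 alternatives. Named companion genes were recomputed only without each library, an alternative also chosen after seeing the data, and levels, correlations and list medians under none of them. edgeR called 0 genes in ACLP-NT against saline, Aducanumab against saline and ACLP-NT against Aducanumab. DESeq2 called 12, 19 and 3, and on the genes edgeR tested, an alternative chosen after seeing the data, 9, 18 and 3. limma on log2(FPKM + 1) with no filter called 1 (Trbj1-2) in each comparison with saline. Leaving out a library gave 0 to 1 calls in each comparison: Nav2 without saline 32 in both comparisons with saline, and 4933407K13Rik without ACLP-NT 49 in both comparisons with Aducanumab. These genes were named after their values were seen. Grn narrowly passed in Aducanumab against saline with DESeq2 (-0.3865) and on the genes edgeR tested (-0.3829), and narrowly missed in ACLP-NT. It stayed below 0 in both comparisons with saline under every alternative run, and without 1 library it lay between -0.4196 and -0.312 (ACLP-NT), -0.4339 and -0.3229 (Aducanumab) and -0.03747 and 0.07854 (between treatments). Psap changed sign with the microglia score as covariate in ACLP-NT against saline (0.0004951), and in Aducanumab against saline with no filter (-0.0005514), with DESeq2 (-0.0007235) and with the choroid plexus score (-0.05124). Without 1 library it lay between -0.06339 and 0.01562, -0.037 and 0.0529, and -0.08244 and 0.002957 in the 3 comparisons. Sort1 in Aducanumab against saline lay between -0.02081 and 0.08324, and Tmem106b between treatments between -0.007533 and 0.03768. The cause of these changes was not tested. No paired analysis was possible because the groups share no replicate number.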
